A study of Mus musculus with 2 samples.

Results

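Cytosolic ribosomal proteins are the protein subunits of the ribosomes that translate nuclear messages. Their transcripts were followed here through every probe set annotated to a single gene whose symbol is Rpl or Rps with a number and at most a closing letter, Rplp with its number, or Rpsa, leaving out pseudogenes and the Rps6k kinases. The rule found 99 probe sets for 45 genes, 24 of the large and 21 of the small subunit, among 34945 probe sets with 1 gene, which stood for 18193 genes on an array of 45101 probe sets. RefSeq lists 81 protein-coding mouse genes that the rule matches. Another 28 of these appeared only on probe sets that list several genes and were not counted as members, 8 were not analysed here, and 1 further gene with its own probe set (Rps4l) was left out as a pseudogene.

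The study compared 2 arrays of total RNA from bEnd3, a BALB/c mouse line of brain microvessel endothelium (cerebral cortex) transformed with the polyoma middle T antigen. The Smad4-siRNA population had been infected with a retrovirus that delivers an siRNA against Smad4, the shared mediator of TGF-beta and BMP signalling. The Control-siRNA population had been infected with a retrovirus carrying a control siRNA. Virus for both came from PLAT-E packaging cells, and both populations were selected with puromycin and grown in DMEM with 15% FCS. Each array held RNA pooled from 2 infections, labelled from 6 µg, so each group is 1 pooled population of 1 transformed line. With 1 array per group there is no replicate error, no test between the groups was possible, and every ratio below describes these 2 arrays.

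Ribosomal proteins are made in near-equal amounts and bind ribosomal RNA in the nucleolus to form the large subunit, which joins amino acids, and the small subunit, which reads the message. Their transcripts are among the most abundant in growing cells. Most begin with a 5′ terminal oligopyrimidine (TOP) tract, a C at the first base followed by a run of C and T, through which mTORC1 and its effector Larp1 control their translation and stability together. Assembly of the subunits needs many further proteins that are not part of the finished ribosome, and RNA polymerase I, which makes most of the ribosomal RNA.

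The sequences at the annotated starts were searched for the TOP tract. A table of mouse promoters from RefSeq (GRCm38.p6) held 48 starts for 40 of the 45 genes. The tract, defined as a C at the first transcribed base and at least 4 pyrimidines after it, stood at the annotated start of 8 of these 40 genes (20%) and of 3.01% of all 27025 genes in the table. With the C allowed up to 5 bases to either side, the shares were 47.5% and 21.2%. An annotated start can lie a few bases from the one the cell uses. Below are the 4 members that were lowest on the array labelled Smad4-siRNA, Rpl12, Rps6, Rpl14 and Rps27, followed by 5 with a tract at the start and a ratio near 0. Each line gives 10 bases before the start and 20 from it, 5′ to 3′ on the strand of the gene, with the C and its pyrimidine run in capitals.
Rpl12, chr2:32961702-32961731 (+): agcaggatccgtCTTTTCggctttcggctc
Rps6, chr4:86857348-86857377 (-): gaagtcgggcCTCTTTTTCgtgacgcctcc
Rpl14, chr9:120571507-120571536 (+): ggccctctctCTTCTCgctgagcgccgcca
Rps27, chr3:90213629-90213658 (-): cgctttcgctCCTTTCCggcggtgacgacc
Rpl35, chr2:39005112-39005141 (-): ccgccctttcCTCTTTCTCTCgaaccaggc
Rpl38, chr11:114668570-114668599 (+): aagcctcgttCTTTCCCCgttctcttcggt
Rplp2, chr7:141447641-141447670 (+): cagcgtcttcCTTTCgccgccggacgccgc
Rps10, chr17:27635225-27635254 (-): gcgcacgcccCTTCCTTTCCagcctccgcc
Rps18, chr17:33955646-33955675 (-): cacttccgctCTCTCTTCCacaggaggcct

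In Rpl12 the run begins 2 bases after the annotated start, and in the other 8 genes it begins at the start itself. The runs read CTCTTTTTC in Rps6, CTTCTC in Rpl14 and CCTTTCC in Rps27, against CTTTC in Rplp2 and CTCTTTCTCTC in Rpl35, so a tract was present both in the lowest members and in members near 0. The median log2 ratio was -0.08 over the 8 measured members with a tract at the start (range -1.35 to 0.10) and -0.06 over the 29 without one (range -1.52 to 0.42).

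The windows upstream of the starts were searched on both strands, from 250 bases before to 50 after the start, for 5 short motifs. The Ets motif CCGGAAG, of the kind bound by GABP, was found in 20 of 40 member genes (50%) and in 9.93% of all genes. The YY1 motif AAGATGG was in 17.5% of members and 7.28% of all genes, and the Sp1 motif GGGCGG in 55% and 38.2%. The E-box CACGTG, the sequence Myc and Max can bind, was in 10% of members and 8.09% of all genes, and TATAAA in 12.5% and 15.7%. None of these motifs contains another, and a match is a description of the letters, not a bound site. The window of Rps6 from 200 bases before its start to 20 after it, chr4:86857348-86857567 (-), and that of Rpl38, chr11:114668380-114668599 (+), show the Ets motif (and in Rpl38 the Sp1 motif just before it) in capitals.
Rps6: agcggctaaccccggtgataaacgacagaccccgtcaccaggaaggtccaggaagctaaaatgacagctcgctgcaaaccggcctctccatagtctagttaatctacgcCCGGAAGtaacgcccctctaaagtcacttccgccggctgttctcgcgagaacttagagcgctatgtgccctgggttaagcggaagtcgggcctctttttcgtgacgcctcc
Rpl38: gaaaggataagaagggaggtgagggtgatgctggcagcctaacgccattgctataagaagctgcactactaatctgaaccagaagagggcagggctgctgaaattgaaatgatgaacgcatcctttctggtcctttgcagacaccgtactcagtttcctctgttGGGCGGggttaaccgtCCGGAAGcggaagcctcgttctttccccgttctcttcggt

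The values were MAS5 signal intensities, brought to a common distribution by quantile normalization, and a gene was read from its brightest probe set. The log2 ratio is the array labelled Smad4-siRNA minus Control-siRNA, so a positive value means higher under the Smad4-siRNA label, and a gene counted as measured where both signals reached the array median of 22.8. The 3 probe sets of Smad4 read 1165, 817 and 722 under the Smad4-siRNA label and 916, 545 and 607 in the control. Their log2 ratios were 0.35, 0.58 and 0.25, against -0.07, 0.21 and -0.12 in the values as deposited, so the direction turned with the scaling in 2 of the 3. No probe set was 1.5-fold lower under either scaling, and the array is named by its label throughout. The arrays also stood apart in cell type markers. Of 20 endothelial genes, 9 reached the floor under the Smad4-siRNA label and 20 in the control, with summed signals of 1147 and 28865, and Pecam1 and Cldn5 read 1.46 and 1.33, against 1885 and 1646 in the control. Of 12 fibroblast genes, 10 reached it under the Smad4-siRNA label and 2 in the control (summed signals 26866 and 1011), and of 8 pericyte and smooth muscle genes 4 and 2 (3012 and 91.9). Among 17 genes of the cell cycle 12 were at least 2-fold higher and none 2-fold lower, beside 12.6% and 15% of all measured genes. The summed signals of the 17 were 8040 and 4978. The part of these differences in any result below was not tested, and in bulk RNA fewer cells of a type and less RNA per cell cannot be told apart.

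Against that background the ribosomal protein transcripts lay close together and near equality. Of the 45 genes, 42 were measured on both arrays, with a median log2 ratio of -0.05 (SD 0.42 over genes, range -1.52 to 0.42). None was at least 2-fold higher, where 12.6% of all 9479 measured genes were, and 3 (Rpl12, Rps6 and Rpl14) were at least 2-fold lower, where 15% of all genes were (27.7% in either direction). At 1.5-fold, none was higher and 4 were lower, the fourth being Rps27, beside 21% of all genes higher, 28.9% lower and 49.9% in either direction. The other 38 members, 90.5%, lay within 1.5-fold, as did 50.1% of all genes. The median of all genes was -0.15 and their SD 1.10. The large subunit (22 genes) and the small subunit (20 genes) had the same median, -0.05 each, with SDs of 0.46 and 0.38.

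**Figure D1:**
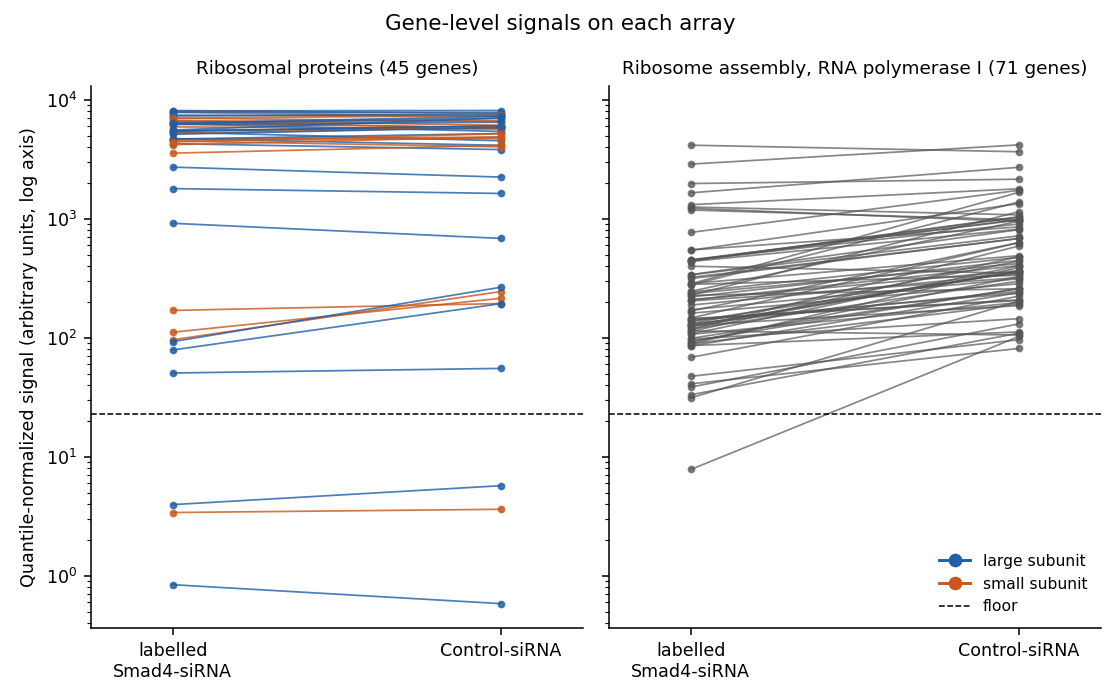
Quantile-normalized gene-level signal (arbitrary units, log axis) for the array labelled Smad4-siRNA (left end of each line) and the Control-siRNA array (right end); each line is 1 gene, for the 45 ribosomal protein genes (left, by subunit) and for 71 ribosome assembly and RNA polymerase I genes (right), with the measurement floor of 22.8 dashed. Most ribosomal protein lines run flat above a signal of 1000, 3 lie under the floor on both arrays, and most assembly gene lines are lower at the Smad4-siRNA label.

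Which side of 0 a member took was less settled than how near to 0 it lay. After quantile normalization 17 of 42 members (40.5%) were above 0, beside 42.9% of all genes. In the values as deposited 13 were above 0, with medians of -0.15 for the members and -0.33 for all genes, and with the median of all genes set to 0 the count was 33 and the members' median 0.17. The other alternatives changed scaling, floor, pseudocount and probe set, several-gene probe sets included. Over these and the values above, 10 members were above 0 and 8 below 0 wherever they had a value, and 24 took either side. The 10 were Rpl8, Rpl10a, Rpl11, Rpl22, Rpl37, Rpl37a, Rps14, Rps24, Rps26 and Rps29, and the 8 were Rpl12, Rpl14, Rpl19, Rps6, Rps19, Rps25, Rps27l and Rpsa. Of the 10, only Rpl22 and Rps24 had a value without probe sets that carry the suffix a, s or x in their names. Rps29 was at 0.004 as deposited.

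Among large subunit proteins, Rpl37, which binds zinc, had the highest ratio: 917 under the Smad4-siRNA label and 684 in the control, 0.42 on the log2 scale, but 0.02 in the values as deposited. Rpl11, which with Rpl5 and 5S rRNA forms the particle that can bind the p53 inhibitor Mdm2, read 2720 and 2243 (0.28). As deposited its ratio was 0.01. A dim probe set that lists Rpl11 with another gene had a ratio of -0.79 after quantile normalization, at a mean signal of 49.5. Rpl10a, at the mobile stalk beside the tRNA exit site, read 5355 and 4534 (0.24, and 0.13 as deposited). All 3 were slightly higher under the Smad4-siRNA label, by differences smaller than the pooled SD of 0.34 between probe sets of the same member gene except for Rpl37. Among member probe sets above a signal of 1000 that SD was 0.12, which Rpl11 and Rpl10a exceeded. Both SDs compare probe sets on the same arrays and do not measure error between arrays.

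Rpl37a read 6287 and 5429 (0.21) on its brightest probe set and had another on the other side of 0, at -0.25. Rpl22, which is dispensable in most mouse tissues because its paralog Rpl22l1 can replace it, read 4724 and 4147 (0.19), and Rpl22l1 read 3148 and 3099 (0.02). A dimmer probe set of Rpl22 read 914 and 438, a ratio of 1.06, the highest of any member probe set measured on both arrays. Rpl8, next to the catalytic centre, read 4283 and 3820 (0.16), and Rpl27a 1795 and 1634 (0.14, but -0.21 as deposited).

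The stalk that recruits elongation factors gave ratios on either side of 0. Its base protein Rplp0 read 5140 under the Smad4-siRNA label and 5866 in the control (-0.19), and its tip protein Rplp2 7892 and 7828 (0.01). Rpl38, which in mice is needed for the translation of a set of Hox messages, read 8079 and 8135 (-0.01), and Rpl7a 7423 and 7332 (0.02). The deposited range of all probe sets ended at 9783 under the Smad4-siRNA label and 9247 in the control.

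Several large subunit members lay slightly lower under the Smad4-siRNA label. Rpl13a, which in human myeloid cells leaves the ribosome during the interferon-gamma response to repress translation, read 6311 and 7026 (-0.16), and its 4 probe sets lay between -0.20 and -0.12. Rpl35, near the mouth of the exit tunnel, read 5467 and 6062 (-0.15), and its 5 measured probe sets lay between -0.15 and -0.04. Rpl6 read 6376 and 7261 (-0.19), Rpl7 5429 and 6032 (-0.15) and Rpl27 4682 and 5216 (-0.16). Rpl27 had other probe sets that were not lower, at 0.10 and 0.002. Rpl19, which reaches across to the small subunit, read 5577 and 7036, and at -0.34 was the lowest member with a signal above 1000.

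In the small subunit the higher values were as modest. Rps20 read 6648 under the Smad4-siRNA label and 5747 in the control (0.21), Rps26, which touches the message as it leaves the ribosome, 4513 and 4029 (0.16), and Rps14, whose loss of 1 copy causes the anaemia of the human 5q- syndrome, 6740 and 6120 (0.14). Rps24 had 5 measured probe sets, all above 0, between 0.11 and 0.33. Rps18, Rps10 and Rps29 read 0.10, 0.09 and 0.08 on their brightest probe sets and each had at least 1 other on the opposite side of 0.

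The lower side of the small subunit included Rpsa, also known as a cell surface laminin receptor, at 4433 and 5187 (-0.23), Rps19, the gene most often mutated in human Diamond-Blackfan anaemia, at 4205 and 4872 (-0.21), and Rps3, at the message entry channel, at 5216 and 5915 (-0.18). Rps27l, a paralog of Rps27 that p53 induces, read 3565 and 4146 (-0.22), with its 3 probe sets between -0.22 and 0.08. The X-linked Rps4x read 5930 and 5680 (0.06). None of these differences exceeded the 0.34 between all probe sets of 1 member gene. Among member probe sets above a signal of 1000 that SD was 0.12, and all of these differences but that of Rps4x exceeded it. Both SDs compare probe sets on the same arrays. They do not measure error between arrays, so exceeding them does not place a difference beyond noise. Over the processing settings Rps3 (-0.27 to 0.06) and Rps4x (-0.03 to 0.30) changed sign. Rpsa, Rps19 and Rps27l stayed negative wherever they had a value.

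**Figure D2:**
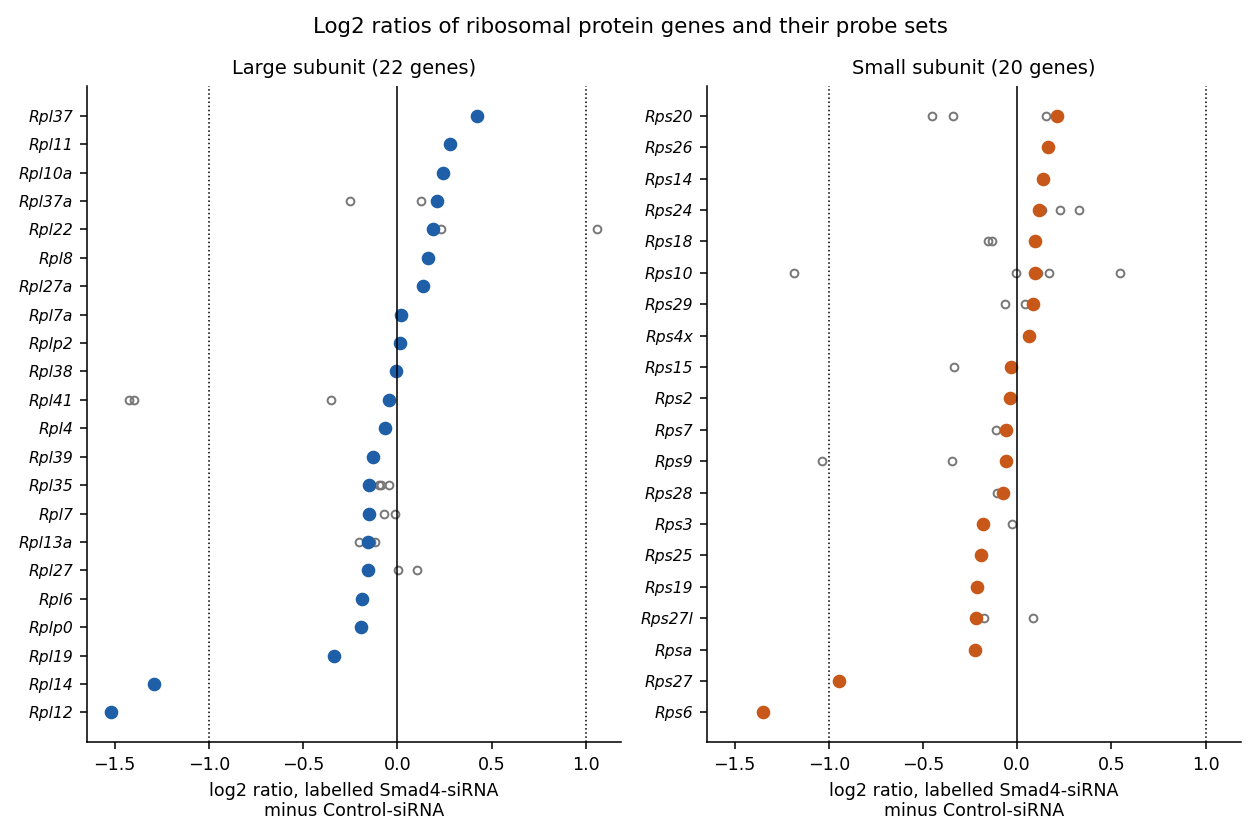
Log2 ratio, array labelled Smad4-siRNA minus Control-siRNA, of the 42 measured members by subunit; filled points are the brightest probe set of each gene and open points its other measured probe sets, with dotted lines at 2-fold. All but Rpl12, Rpl14, Rps6 and Rps27 sit within 1.5-fold of 0, and the open points of Rpl41, Rps9 and Rps10 beyond the lower line belong to dim probe sets.

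The members with large ratios were the dim ones. The split at a mean signal of 1000 was chosen after the values were seen. The 35 members above it had a median of -0.03, an SD of 0.16 and a range of -0.34 to 0.28, and all 35 lay within 1.5-fold. The 898 other genes above the same signal had a median of -0.13 and an SD of 0.80, and 62.0% lay within 1.5-fold. Above a signal of 4000, also chosen after the fact, 32 members had an SD of 0.15, and 51 other genes an SD of 0.48 with 86.3% within 1.5-fold and 3 at least 2-fold higher. The 7 members below 1000 had a median of -0.95.

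**Figure D3:**
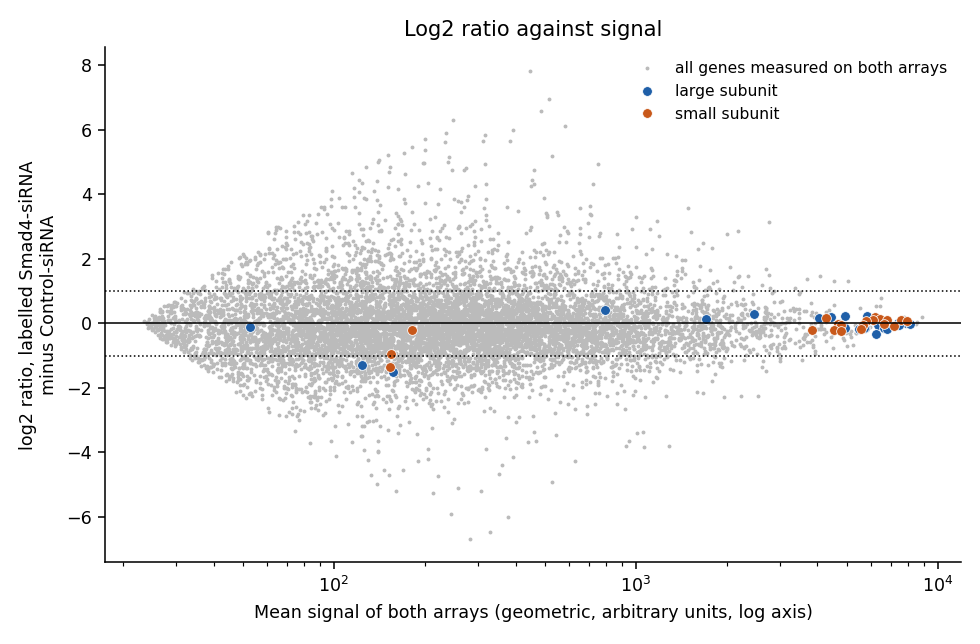
Log2 ratio, array labelled Smad4-siRNA minus Control-siRNA, against the geometric mean signal of both arrays (log axis) for the 9479 measured genes (grey) and the members by subunit, with dotted lines at 2-fold; the wedge at the left edge comes from the floor. The members at high signal form a narrow band about 0 (SD 0.16 above 1000), and the 3 beyond the lower line have signals between 79.0 and 266 on the 2 arrays.

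Probe sets of the same gene repeated this pattern at the level of single measurements. Over 19 members with at least 2 measured probe sets (63 in all), the pooled SD of the log2 ratios within a gene was 0.34, beside 0.47 over 4546 genes in all. Among probe sets above a signal of 1000 it was 0.12 in members and 0.25 in other genes. Of 86 member probe sets measured on both arrays, the 68 above 1000 all lay within 1.5-fold (median -0.03). Of the 18 below it, 7 were past 2-fold on the lower side and 1 on the higher (median -0.40). Of the 15831 dim probe sets of other genes, 2484 were past 2-fold on the lower side and 1840 on the higher (median -0.16).

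Rpl41, the smallest ribosomal protein, shows the difference between bright and dim sets. Its brightest probe set read 7332 under the Smad4-siRNA label and 7560 in the control (-0.04), and the next 3036 and 3870 (-0.35). Its 2 dim sets read 66.9 and 44.4 against 179 and 117, ratios of -1.42 and -1.40. Rps10, a protein of the small subunit head, had 5 bright sets between -0.01 and 0.55 and a dim set that read 24.8 and 56.4 (-1.18).

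Rps9, which helps keep decoding accurate, read 4677 and 4867 (-0.06) on its bright set and 67.5 and 138 (-1.03) on 1 of its 2 dim sets, with the other at -0.34. The dim sets of Rps20 read -0.45 and -0.34, where its bright sets read 0.21 and 0.15. In all, 8 members had both bright and dim probe sets. The dim sets had the lower median in 5 of them and the higher in 3 (Rpl22, Rps24 and Rps3), and the median difference was -0.50, beside -0.00 over 494 other genes with both kinds. In 2 of the 8 members, and in 3.04% of the other genes, the dim sets were lower by at least 1 on the log2 scale.

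Each of the 4 lowest members rested on a single measured probe set of low signal. Rpl12, at the base of the stalk, read 92.9 under the Smad4-siRNA label and 266 in the control, 2.87-fold lower. Rps6, the main substrate of the S6 kinases downstream of mTORC1, read 96.2 and 245, 2.54-fold lower. Rpl14, on the solvent face of the large subunit, read 79.0 and 194, 2.45-fold lower. Rps27, a zinc-binding protein, read 111 and 215, 1.93-fold lower.

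Probe sets that list these genes together with others, looked at after the ratios were known, gave smaller differences at higher signal. The 2 that list Rpl12 had ratios of -0.10 and -0.06, the brighter reading 5994 and 6425. The 5 that list Rpl14 lay between -0.39 and -0.31, at mean signals of 2602 to 4344. The 8 measured ones that list Rps6 lay between -0.77 and -0.11, with mean signals from 191 to 7341, and the brightest read 6669 and 8079 (-0.28). The 1 that lists Rps27 read 4474 and 3522, a ratio of 0.35 and so on the other side of 0. Such a probe set cannot be assigned to 1 of its genes, and where on each transcript the dim probe sets lie was not analysed here.

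**Figure D4:**
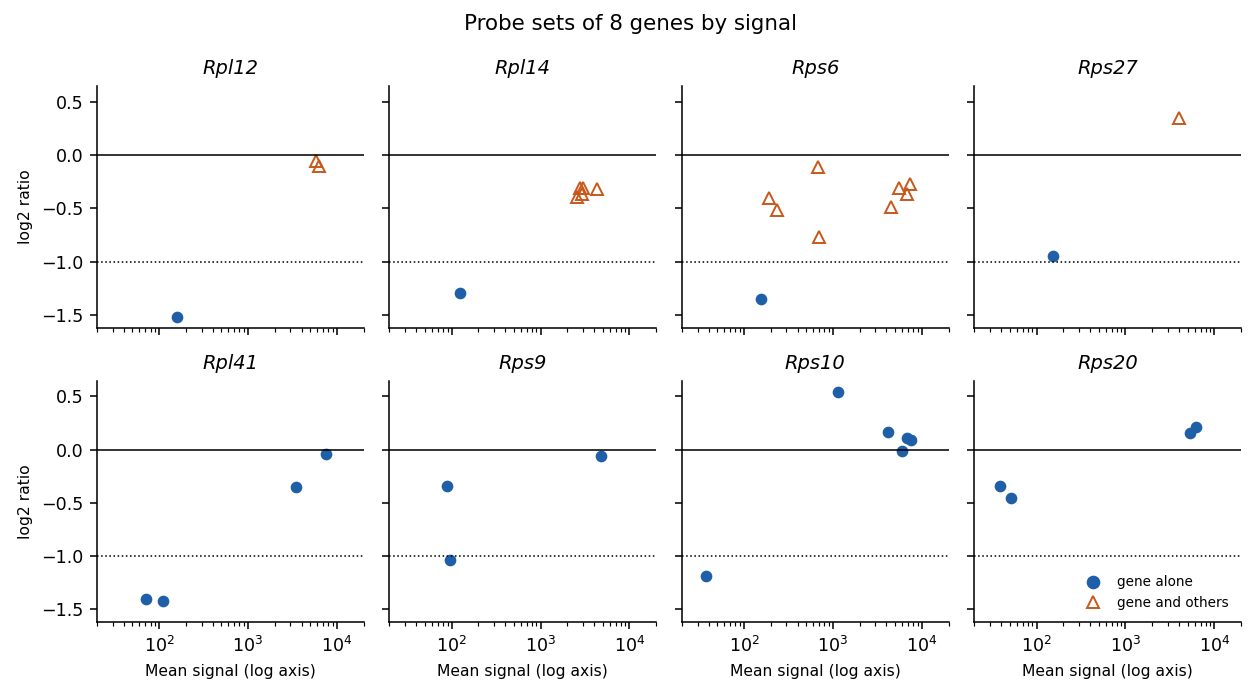
Log2 ratio, array labelled Smad4-siRNA minus Control-siRNA, of each measured probe set of 8 genes against its mean signal (log axis); filled circles are probe sets annotated to the gene alone and open triangles probe sets that list it with other genes, with a dotted line at 2-fold lower. In the upper row the single low circle of Rpl12, Rpl14, Rps6 and Rps27 stands apart from the triangles, and in the lower row the dim circles of Rpl41, Rps9, Rps10 and Rps20 lie below the bright ones.

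Over all ribosomal protein symbols, 110 probe sets listed a gene of the family beside others. The 101 measured on both arrays had a median of -0.12 (SD 0.30), and 91 lay within 1.5-fold, as did 50.1% of all genes. Of the 101, 1 was at least 2-fold lower and none 2-fold higher, beside 15% and 12.6% of all genes. The 1 past 2-fold lists Rpl15 and had a mean signal above 1000, with 753 under the Smad4-siRNA label and 1618 in the control (-1.10). Another bright one, which lists Rpl36a, read 2881 and 4498 (-0.64). With the several-gene probe sets counted as members, 69 genes had a median of -0.06 and an SD of 0.17, and all 69 lay within 1.5-fold. Each gene was read from its brightest probe set, so the lower one that lists Rpl15 did not enter.

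Of the other dim members, Rpl37 had the highest ratio of the family, given above, and a pair lay closer to 0. Rpl39, which lines the exit tunnel, read 50.6 under the Smad4-siRNA label and 55.3 in the control (-0.13), and Rps25, needed for translation from some viral internal entry sites, 170 and 194 (-0.19). A probe set that lists Rpl39 with other genes read 0.02, and 1 that lists Rps25 read -0.33. A further 3 members were under the floor on both arrays, so no fold is given. Rpl3l, which replaces Rpl3 in striated muscle, read 0.841 and 0.583, and Rpl39l, the testis form of Rpl39, 3.96 and 5.72. Rps16, whose tail reaches the tRNA in the decoding site, read 3.40 and 3.62 on its own probe set, while the 2 that list it with other genes lay at mean signals of 7151 and 7493 with ratios of -0.18 and -0.11.

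Other ribosomal and elongation genes had medians as near to 0 as the members. Of 4 measured ribosomal proteins whose symbols fall outside the rule, Rps3a1 read 8313 and 7217 (0.20), Rpl22l1 0.02, Fau, which encodes Rps30 as a fusion, -0.07 and Rpl7l1 -0.08. Of 19 elongation factors and other classical TOP messages, none was 2-fold higher or lower, beside 12.6% and 15% of all genes. Their median was -0.01, and 17 lay within 1.5-fold, as did 50.1% of all genes. All 19 had a mean signal above 1000. Their SD was 0.32, wider than the 0.16 of the 35 members above that signal. The elongation factors Eef1a1 and Eef2, which bring in tRNA and move the ribosome along, read -0.01 and -0.02, and Tpt1, a TOP message of growing cells, 0.04. Outside 1.5-fold were Eif4b (0.72), which aids the helicase that unwinds messages, and Hnrnpa1 (0.65), an RNA-binding protein of splicing.

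Genes that build ribosomes, without being part of them, were lower on the array labelled Smad4-siRNA. Of 71 genes of ribosome assembly and RNA polymerase I, 70 were measured on both arrays and Rrp12 on the Control-siRNA array alone. Their median was -1.05, and 38 were at least 2-fold lower and none 2-fold higher, beside 15% and 12.6% of all genes. Rrp9, which binds U3 RNA, read 31.3 and 204 (-2.70), Nhp2, of the pseudouridine-forming particles, 284 and 1671 (-2.56), and Nop56, of the methylating ones, 227 and 1149 (-2.34). The methyltransferase Fbl read 545 and 1343 (-1.30), and the largest RNA polymerase I subunit Polr1a 68.6 and 224 (-1.71). Npm1 (0.18), itself a TOP message, and Nsa2 (0.37) were above 0, with Polr1c, Imp3, Rrp1 and Taf1b.

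The mitochondrial ribosomal proteins, which build a separate ribosome for the messages of the mitochondrial genome, were also mostly lower. All 76 were measured, with a median of -0.70 and 68 below 0. Of the 76, 24 were at least 2-fold lower, none was 2-fold higher and 31 lay within 1.5-fold. The shares over all genes were 15%, 12.6% and 50.1%. Mrpl20 read 99.2 and 413 (-2.06) and Mrps5 89.4 and 342 (-1.93), while Mrps36 read 371 and 214 (0.80). The 31 subunits of the constitutive proteasome had a median of -0.47 with 5 at least 2-fold lower, near the 15% of all genes. Among the 5 was the ATPase Psmc5 at 565 and 1900 (-1.75). The difference between the lists has no test with 1 array per group.

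Signal differed between these lists as well, so the same cut at 1000 was applied to them after the values were seen. Among ribosome assembly genes 9 lay above it, with a median of -0.12 and 1 at least 2-fold lower (Eif6). The others above it included Ncl, a nucleolar RNA-binding protein, at 2884 and 4186 (-0.54), and Npm1 at 4159 and 3664. Of the mitochondrial ribosomal proteins 6 lay above it, with a median of -0.71 and none past 2-fold. Of the proteasome subunits 24 did, with a median of -0.47 and 3 at least 2-fold lower. Over all 933 genes above that signal, 74 were at least 2-fold lower and 79 at least 2-fold higher. Above that signal the medians were thus -0.03 for 35 members and -0.12 for 9 assembly genes, against -0.05 and -1.05 over the full lists. The 8539 genes outside the members below that signal had a median of -0.15. The part of signal in the differences between lists was not tested.

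**Figure D5:**
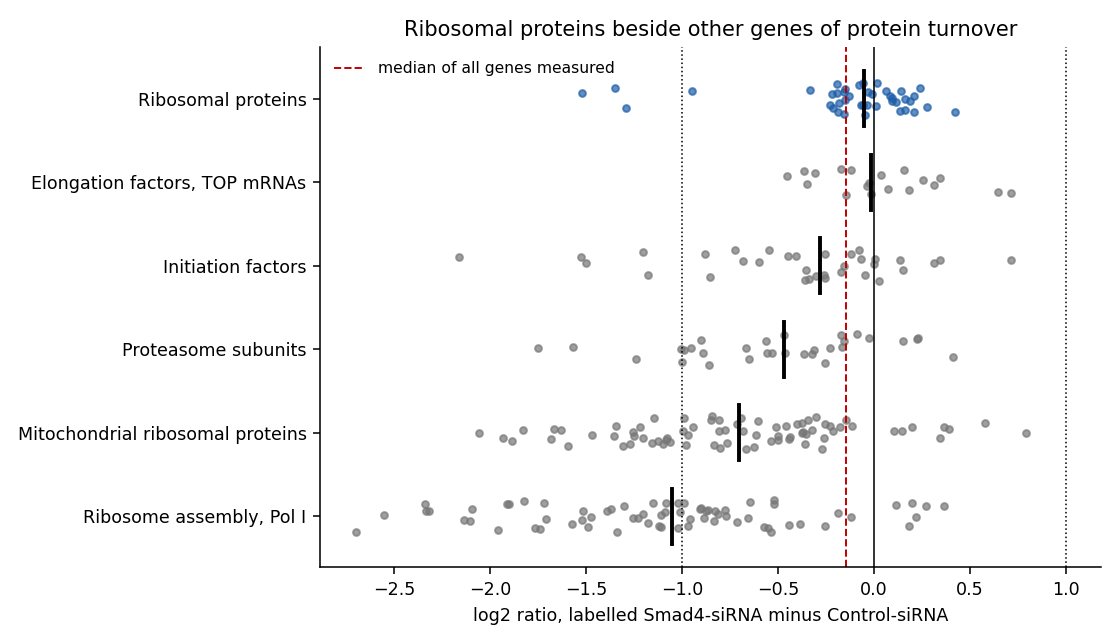
Log2 ratio, array labelled Smad4-siRNA minus Control-siRNA, of each measured gene in 6 lists; black bars are list medians, the dashed line is the median of all 9479 genes (-0.15) and dotted lines mark 2-fold. The ribosomal proteins and the elongation and TOP list are centred near 0 (-0.05 and -0.01), and the medians lie further left for initiation factors (-0.28), proteasome subunits (-0.47), mitochondrial ribosomal proteins (-0.70) and ribosome assembly genes (-1.05).

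By their median, initiation factors lay between these sets. Of 34 measured, none was 2-fold higher and 5 were at least 2-fold lower, with a median of -0.28. The shares over all genes were 12.6% and 15%, so the lower count was near the share of all genes. The 3 subunits Eif2b2 (-2.16), Eif2b3 (-1.53) and Eif2b4 (-1.50) belong to the exchange factor that reloads eIF2 with GTP. Eif2b1 and Eif2b5, of the same complex, read -0.72 and -0.68. The others were Eif5 (-1.20) and Eif6 (-1.17), which keeps the large subunit from joining too early.

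Among regulators of TOP messages and of growth signalling, 18 were measured, with a median of -0.31. Past 2-fold were 1 on the higher side and 3 on the lower, beside 12.6% and 15% of all genes. The kinase Mtor itself read 157 and 176 (-0.17) and Larp1, which binds the TOP tract, 505 and 696 (-0.46). Eif4ebp1, the inhibitor of cap binding that mTORC1 phosphorylates, read 1250 and 2376 (-0.93). The higher gene was Pdcd4 (1.34), an inhibitor of the Eif4a helicase, and the lower ones were Cnbp (-1.14), an RNA-binding protein linked to TOP messages, and the mTORC1 components Akt1s1 (-1.10) and Deptor (-1.05).

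Of 11 regulators of ribosomal protein gene transcription, 2 were at least 2-fold lower and none higher, beside 15% and 12.6% of all genes. Their median was -0.24. Myc, which drives ribosomal protein and assembly genes in many cells, read 228 under the Smad4-siRNA label and 736 in the control (-1.69), and Mycn 3480 and 3213 (0.12). Gabpa, the Ets-family subunit of GABP, read -0.24, Yy1 -0.58 and Sp1 0.64. Tbpl1, a TBP relative that starts transcription at some TATA-less promoters, read -1.19.

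Partners that carry single ribosomal proteins or sense their excess varied widely. Of 15 measured, 5 were past 2-fold on the lower side and 1 on the higher, beside 15% and 12.6% of all genes. Their median was -0.54. Grwd1, the chaperone of Rpl3, read 69.9 and 434 (-2.63), Ltv1, of the maturing small subunit, 139 and 561 (-2.01), and Rrs1, which brings in the 5S particle of Rpl5 and Rpl11, 460 and 1743 (-1.92). Bccip, known as a partner of Rpl23, read -1.22 and Tsr1 -1.08. Mdm2, the p53 ligase that free Rpl11 can bind, read 1125 and 2140 (-0.93), and its relative Mdm4 663 and 173 (1.94).

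RNA quality was read from the control probe sets as deposited. The 3′ to 5′ signal ratio was 0.657 under the Smad4-siRNA label and 0.653 in the control for Gapdh, and 1.48 and 1.23 for Actb. For 18S ribosomal RNA it was 1.43 and 1.67, and the log2 ratios of its 3′, middle and 5′ probe sets were -0.64, -0.82 and -0.41. The part of these values in the ratios of the members was not tested.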

How the data were processed

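Total RNA from 2 arrays, 1 per group, was analysed, with groups taken from the sample titles. The authors deposited a linear signal intensity for each probe set; MAS5 produced it, per the submitters' processing notes, with a version and scaling target not given in the sources used here. The number of arrays limits the precision. Probe sets were named by GEO's platform annotation, updated by Entrez identifier against RefSeq (18032 of 18193 genes matched). After 64 control probe sets were removed, log2 signals were quantile normalized with numpy 2.4.6 and pandas 2.3.3. The floor was the array median (50th percentile), each gene was read from the probe set with the highest mean of its log2 signals, and called means past 2-fold, or 1.5-fold as a second rule. Probe sets listing several genes (932) or unnamed (9160) were given no gene.

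The members and gene lists were chosen with earlier results of these data known. Named members are those past 2-fold, the 8 highest and 8 lowest, those below the floor and those with fixed roles; others were chosen after their values were seen. The normalization and counting steps were tested on simulated data. Alternatives changed the scaling (as deposited, centred, a lowess trend with fraction 0.3 from statsmodels 0.14.6, a 2% trimmed mean), the floor, a pseudocount, the choice of probe set and the membership.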

Additional observations from a re-analysis of the deposited data

How the results depend on the processing

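No paired analysis was possible because each group had 1 array. Of 12 alternatives listed at the start and 2 added after seeing the data, none gave a member at least 2-fold higher. The members' median ran from -0.33 to 0.17, and it exceeded that of all genes in 14 of 15 settings. These settings are not separate checks. As deposited, centred and with a trimmed mean, the difference between the 2 medians was the same, 0.17, because only a constant changed. The setting above a signal of 1000 set bright members beside all genes, dim ones included. The exception left out probe sets with the suffix a, s or x in their names (19 members, medians -0.33 and -0.15). The count of members at least 2-fold lower, 3 as reported, was 0 with the floor at the 75th percentile, with members above a signal of 1000 alone (added) and with several-gene probe sets counted (added), and 5 without suffixed probe sets; the first 2 leave out dim members by construction. Members above 0, 17 as reported, numbered 33 with ratios centred on the median of all genes, 32 with a common trimmed mean and 3 without suffixed probe sets. Centring and the other scalings also moved the calls over all genes: 12.6% higher and 15.0% lower as reported, 10.8% and 20.6% as deposited, and 16.0% and 11.9% centred. Of 392 values of single members under alternatives, 379 moved by less than the 0.34 between probe sets of a gene. Part of the 392 could not move, so the count does not measure stability. A changed floor leaves the ratio of a measured member as it was. So does the median over probe sets for a member with 1 probe set, and adding several-gene probe sets for members that none of them list. Those that moved by more were Rpl27a (-0.21) and Rpl37 (0.02) as deposited, Rpl39 centred (0.35) and with a trimmed mean (0.30), Rpl41 by the median of its probe sets (-0.87), and, without suffixed probe sets, Rpl41 (-1.40), Rps10 (-1.18) and Rps20 (-0.34). With several-gene probe sets counted, Rpl12 (-0.10), Rpl14 (-0.32), Rps6 (-0.28), Rps27 (0.35) and Rpl37 (0.07) did so too. The brightest Smad4 probe set read -0.07 as deposited. Among other lists, at least 2-fold lower were 11 proteasome genes as deposited and 3 after the lowess trend was removed, in place of 5, and 43 mitochondrial ribosomal proteins as deposited (median -1.04), in place of 24. With the floor at the 75th percentile, 21 ribosome assembly genes were at least 2-fold lower in place of 38, over fewer genes. Above a signal of 1000 alone (added), at least 2-fold lower were 1 ribosome assembly gene (median -0.12), none of the mitochondrial ribosomal proteins (0) and 3 proteasome genes. Of all 933 genes above that signal, 74 were. The chaperone list's median was -0.90 with the median over probe sets. The cause of these shifts was not tested. Signals near the floor limit the dim probe sets, and 1 array per group leaves every ratio without replicate error.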
